A study of Mus musculus with 10 samples.

Results

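Primary spheres grown from mouse embryonic stem (ES) cells in Lif were compared with the ES cells themselves. The members were picked by array title: 2 arrays of primary-passage primitive neural stem cells, called pNSC_L, and 2 of ES cells, called ESC, out of 10 arrays in 5 groups of 2. All 19938 genes with a probe set of 1 symbol were described. For pNSC_L, R1-derived ES cells were dissociated with trypsin and plated at 20 cells per microlitre in uncoated dishes in serum-free DMEM/F-12 with the N2 supplement and Lif at 1000 U/ml, and spheres formed within 5 to 7 days. ESC are labelled as R1 cells, of 129/Sv origin, grown on mitomycin C-inactivated embryonic fibroblast feeders in DMEM with 15% serum and the same Lif. The loss of feeders, serum and an adhesive surface and the gain of N2 came together, so their effects cannot be told apart. The labels state no step that removed feeder cells from the ESC samples. The other 3 groups were used only to place a level. They were pNSC_LF (primitive cells passaged in Lif and FGF), dNSC (definitive neural stem cells in FGF and EGF) and CNS_NSC. CNS_NSC are neural stem cells from embryonic brain, titled WT (wild type) and grown in FGF and EGF. These 3 groups were also given heparin at 2 micrograms per ml.

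Lif signals through its receptor and the transcription factor Stat3 and keeps mouse ES cells undifferentiated. Serum supplies BMP, which induces the Id genes, and many other factors, while N2 supplies insulin, transferrin, progesterone, putrescine and selenite. Primitive neural stem cells form clonal floating spheres in Lif, and are described as an early neural state that still shares markers with ES cells.

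Values are RMA log2 intensities, and a difference is pNSC_L minus ESC ± its limma SE (n = 2 each), so that 1 is a 2-fold change. A gene rose or fell where its Benjamini-Hochberg adjusted p over all genes was below 0.05. By this rule 1308 genes (6.56%) rose and 1354 (6.79%) fell, together 13.4%. Of these, 208 rose and 231 fell by at least 2-fold, and 15 rose and 22 fell by at least 4-fold. The count depended on the ESC arrays: 1102 genes were called without ESC replicate 1 and 1205 without ESC replicate 2, and 859 of the 2662 calls (414 higher, 445 lower) were kept without each of the 4 arrays in turn. Genes described without further remark below belong to those 859, and "without either ESC replicate" means that each was left out in turn. Counts of gene lists below are to be read beside the 6.56% and 6.79% of all genes. Among genes at or above the median level, which make up most of many lists, 10.1% rose and 10.3% fell. The number of arrays limits the precision, and levels of different genes are not comparable on this scale. A bulk sample cannot tell fewer cells of a type apart from less RNA per cell.

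All 8 ES cell markers (Pou5f1, Nanog, Sox2, Zfp42, Esrrb, Dppa5a, Tdgf1 and Utf1) stayed high in both groups and none passed the test. Their summed linear intensity was 62799 and 66467 on the pNSC_L arrays and 62957 and 59321 on the ESC arrays. Of 8 neural stem markers, Fabp7 rose by 0.74 ± 0.15 (lost without ESC replicate 2), Pax6 fell and 6 were not called, and their sum was 1911 and 1835 in pNSC_L against 1886 and 1999 in ESC. The same sum was at least 30122 on the dNSC and CNS_NSC arrays. The label "neural stem" was therefore not matched by the 8 neural markers fixed for this check. A wider list of 28 neural stem and progenitor genes, described below, had 7 rises and 3 falls. The samples are called by their label's short form, pNSC_L.

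Libraries stood apart in 3 ways. Hprt, a purine salvage enzyme on the X chromosome, read 11.07 and 11.40 in pNSC_L and 6.99 and 6.76 in ESC, and its level was also above 10 in all other arrays. Whether the ESC samples and the cells that gave the spheres were the same subline was not tested, and a subline difference cannot be told apart from the change of culture. A gap of 2-fold or more between replicates was found for 167 genes in pNSC_L and 30 in ESC. Among 64 small nuclear, nucleolar and cytoplasmic RNA genes, replicate 1 read above replicate 2 for 55 in pNSC_L and 57 in ESC, with median gaps of 0.58 and 0.61, against median gaps over all genes of 0.06 and 0.00. The same held for 58 in pNSC_LF (0.65) and 55 in CNS_NSC (0.64), but for 13 in dNSC (-0.13), and a batch behind it was not tested. Of the 64, 4 were called, all higher in pNSC_L, beside 6.56% of all genes that rose. The median difference of the 64 was 0.34, against 0.02 over all genes.

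**Figure D1:**
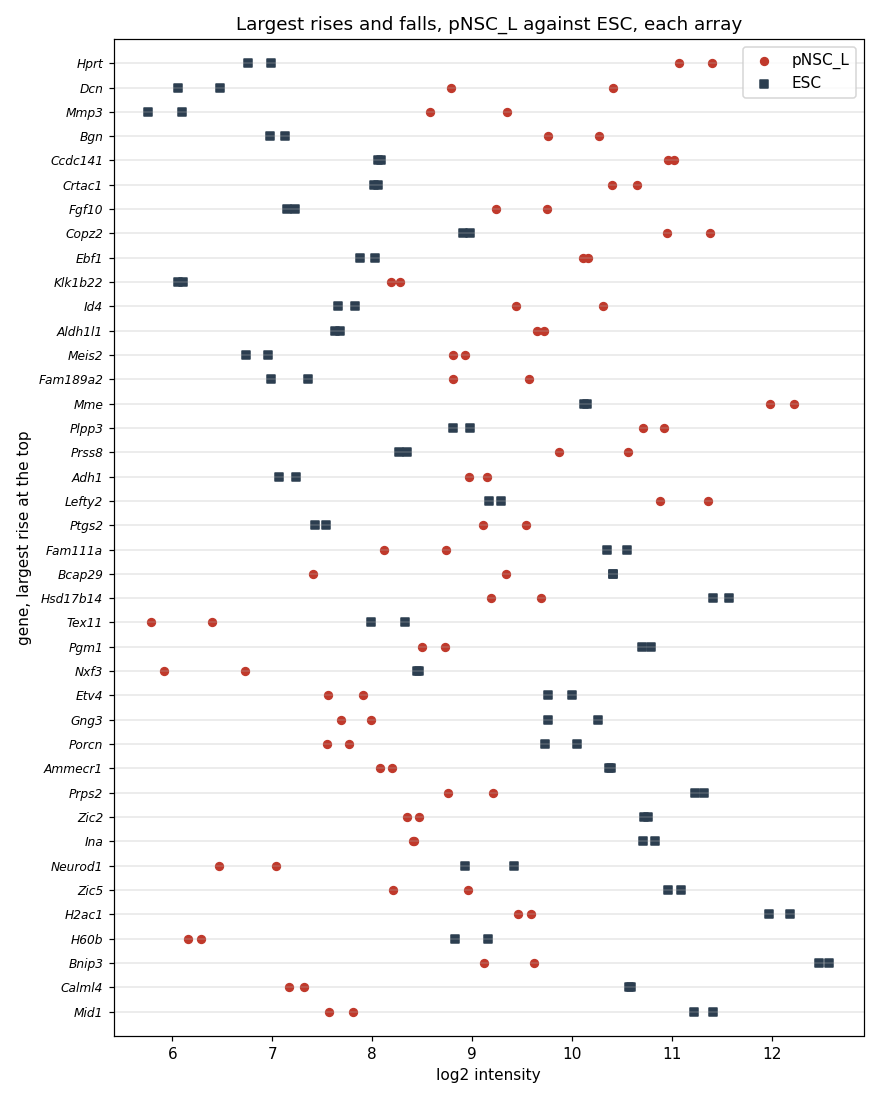
The 20 largest rises and 20 largest falls that met the naming rule, with log2 intensity on each pNSC_L array (circles) and each ESC array (squares). The rule took only genes whose groups do not overlap. The pNSC_L arrays lie far apart for Dcn (8.79 and 10.41) and Bcap29 (7.41 and 9.34).

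Leading the rises after Hprt and the matrix genes treated below was Ccdc141, a coiled-coil protein described in neuronal migration. It read 10.96 and 11.01 in pNSC_L and 8.09 and 8.06 in ESC, a difference of 2.91 ± 0.12. Mme, the surface peptidase neprilysin, reached 11.98 and 12.22 in pNSC_L, against 10.15 and 10.12 in ESC. Aldh1l1, a folate enzyme best known as an astrocyte marker, rose by 2.03 ± 0.20, and Crtac1, a secreted cartilage protein, by 2.49 ± 0.20. Copz2, a subunit of the COPI vesicle coat, was at 11.37 and 10.95 in pNSC_L and 8.90 and 8.98 in ESC, and its 2 pNSC_L arrays lay above all 8 others. Prss8, a membrane-anchored serine protease, rose by 1.90 ± 0.21, and Plpp3, which dephosphorylates lysophosphatidic acid, by 1.92 ± 0.18. Ptgs2, the inducible prostaglandin synthase, rose by 1.84 ± 0.38, a call lost without either ESC replicate or pNSC_L replicate 2.

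Among the falls, Mid1, a microtubule-bound ubiquitin ligase, stood at 7.57 and 7.81 in pNSC_L and at 11.22 and 11.41 in ESC. Calml4, a calmodulin-like protein, read 7.32 and 7.17 in pNSC_L against 10.57 and 10.59 in ESC, so that it fell by 3.34 ± 0.12. The stress ligand H60b, recognised by natural killer cells, fell by 2.77 ± 0.18, although its pNSC_L level of 6.16 and 6.29 lay under the lower quartile of probe sets (6.39 to 6.49), where differences are compressed. Prps2, which makes the ribose precursor of purines and pyrimidines, fell by 2.29 ± 0.14. Gng3, a G protein subunit of neurons, fell by 2.17 ± 0.26, and Hsd17b14, a steroid dehydrogenase, by 2.05 ± 0.16. Mid1, Prps2, Ammecr1, Porcn, Nxf3 and Tex11 are X-linked, as is Hprt.

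Many genes of the imprinted cluster between Dlk1 and Dio3 rose. In mice its maternal chromosome gives the long noncoding RNAs Meg3 and Rian (also called Gtl2 and Meg8) and a long row of small nucleolar and microRNAs, while Dlk1, Rtl1 and Dio3 are expressed from the paternal one. Loss of the maternal transcripts is a known epigenetic change of some mouse pluripotent lines. Of 47 measured genes in this stretch of RefSeq's order, 24 rose and none fell, beside 6.56% of all genes that rose; 46 of the 47 differences were above 0 and their median was 0.60. In the cluster 13 genes rose without ESC replicate 1, 11 without ESC replicate 2 and 22 to 25 without 1 pNSC_L array; 9 of the 24 calls were kept without each of the 4 arrays in turn.

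The precursors of 21 microRNAs in the cluster were called, and RefSeq (GRCm38.p6) lists 39 mature forms of them, all on chromosome 12 within chr12:109585818-109743486. Shown are 1 form each of 5 precursors whose call was kept without each array, with miR-379-3p, the only other of the 39 to share a seed with another. Capitals mark the seed (bases 2 to 8), which pairs with target RNAs. The probe sets read precursor or host transcripts and do not measure these mature forms, and the microRNAs named were chosen after their values were seen.
mmu-miR-543-3p: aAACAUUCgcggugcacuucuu
mmu-miR-329-3p: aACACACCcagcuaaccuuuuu
mmu-miR-381-3p: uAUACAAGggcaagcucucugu
mmu-miR-487b-5p: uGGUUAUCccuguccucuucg
mmu-miR-411-3p: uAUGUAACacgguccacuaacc
mmu-miR-379-3p: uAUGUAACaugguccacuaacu
The last pair shares the seed AUGUAAC, the only seed found more than once, so that the 39 forms hold 38 distinct seeds.

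Meg3 read 12.21 and 12.26 in pNSC_L and 10.92 and 11.13 in ESC (1.21 ± 0.10, adjusted p = 0.00012), and Rian 10.63 and 10.56 in pNSC_L against 9.19 and 8.94 in ESC (1.53 ± 0.18). The pNSC_L and ESC arrays did not overlap for these long RNAs, which held for all 2662 called genes and for 49.3% of all genes. Mir543 stood at 6.89 and 7.55 in pNSC_L and 5.59 and 5.79 in ESC. Mir411 was at 6.82 and 7.28 in pNSC_L, against 6.16 and 5.85 in ESC. Mir380 had the largest difference of the microRNAs (1.69 ± 0.33; lost without pNSC_L replicate 1), but its ESC arrays read 6.93 and 5.72. For 8 of the 24 called genes the ESC mean lay under the lower quartile of probe sets, so the size of those differences is uncertain.

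At the ends of the cluster the paternally expressed genes did not pass the test. Dlk1, a Notch-like membrane protein, was at 8.27 and 8.31 in pNSC_L and 8.58 and 8.59 in ESC (-0.29 ± 0.10, adjusted p = 0.0788). Rtl1, a retrotransposon-derived placental gene, differed by 0.30 ± 0.12 and Dio3, the enzyme that inactivates thyroid hormone, by 0.10 ± 0.13. Of microRNA genes elsewhere in the genome, 10 of 260 rose and 2 fell, with a median of 0.08. The 64 small RNA genes described above had a median of 0.34. For 22 of the 47 cluster genes, called or not, both pNSC_L arrays lay above all 8 others. The share over all genes, called or not, was not computed, so this count cannot be called particular to the cluster. Meg3 averaged 11.94 in pNSC_LF, 11.70 in dNSC and 7.83 in CNS_NSC.

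**Figure D2:**
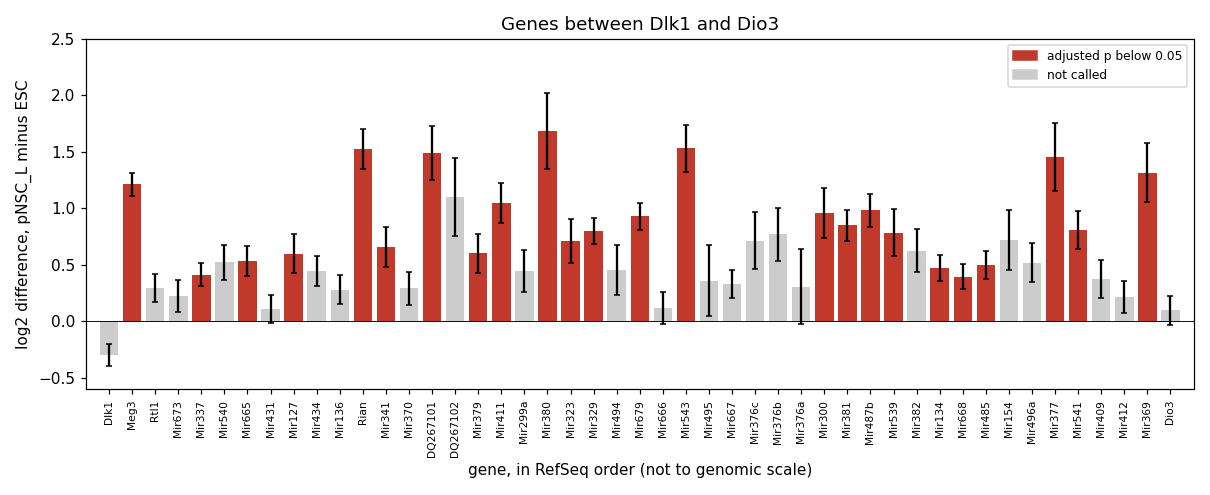
Difference (pNSC_L minus ESC, log2, bars, with SE from limma as error bars) of the 47 measured genes between Dlk1 and Dio3 in RefSeq order; red bars passed the test. All bars but that of Dlk1 lie above 0, and the tallest is Mir380 at 1.69.

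In the list of imprinted genes, 24 were measured, of which 3 rose and 5 fell, and the median difference was -0.04. The rises were Meg3 and Rian, of the cluster above, and Plagl1 (lost without either ESC replicate or pNSC_L replicate 1). Mest, a mesodermal hydrolase-like protein expressed from the paternal copy, was at 9.70 and 9.93 in pNSC_L and 11.14 and 11.24 in ESC. Phlda2, a maternally expressed growth restrainer of the placenta, read 10.86 and 11.73 in pNSC_L against 12.68 and 12.64 in ESC. Grb10, an insulin receptor adaptor, fell by 0.78 ± 0.15 (lost without ESC replicate 2). Without ESC replicate 1 the list had 2 rises and 3 falls, and without ESC replicate 2, 2 and 2.

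Some matrix proteins and enzymes that cut them rose. Of 18 proteoglycans 6 rose, 2 fell and 10 were not called, and of 26 matrix proteases and inhibitors 6 rose, 1 fell and 19 were not called, beside 6.56% of all genes that rose. Bgn, the small proteoglycan biglycan, read 9.76 and 10.26 in pNSC_L and 6.98 and 7.13 in ESC. Dcn, its relative decorin, was at 8.79 and 10.41 in pNSC_L against 6.06 and 6.48 in ESC, so the pNSC_L replicates lay far apart but above both ESC values. Srgn, the granule proteoglycan serglycin, stood at 10.55 and 11.27 in pNSC_L and 9.05 and 9.17 in ESC. Hspg2, perlecan of basement membranes, rose by 1.00 ± 0.13.

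Mmp3, the metalloproteinase stromelysin, was at 8.58 and 9.35 in pNSC_L and 6.10 and 5.76 in ESC, and no array of the other groups came within 1.63 of the lower pNSC_L value. Mmp13, a collagenase, rose by 1.67 ± 0.21 (ESC at 6.28 and 6.03), Timp2, a metalloproteinase inhibitor, by 1.21 ± 0.13 and Adamts9, a versican-cleaving protease, by 1.12 ± 0.17. The ESC levels of Mmp3, Mmp13 and Dcn lay in the lower quartile, where folds are uncertain. Without pNSC_L replicate 1 the proteoglycan list had 4 rises and 2 falls; without ESC replicate 1 it had 4 and 0. The protease list had 4 rises and no fall without ESC replicate 2.

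Among basement membrane genes, Agrn, the heparan sulfate proteoglycan agrin, read 11.31 and 11.13 in pNSC_L and 10.24 and 10.19 in ESC. Of 30 collagens only 3 rose and none fell: Col4a1 (1.15 ± 0.10) and Col4a2 (0.81 ± 0.14), which form the network of basement membranes, and Col18a1 (0.61 ± 0.13; lost without either ESC replicate or pNSC_L replicate 1). Of 19 laminin and other basement membrane genes 6 rose and 2 fell, with a median of 0.38, but only Agrn was called without ESC replicate 1, and only 1 gene rose without ESC replicate 2. Among 22 heparan sulfate proteoglycan genes 7 rose and 2 fell. Gpc4, a glypican that presents growth factors, was at 10.68 and 10.67 in pNSC_L against 9.27 and 9.16 in ESC, and Sdc4, a syndecan, rose by 1.25 ± 0.19. Ext1, a polymerase of heparan sulfate, fell by 0.66 ± 0.12; 5 rose and 1 fell without ESC replicate 1, and 3 and 1 without ESC replicate 2.

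A few secreted inflammatory genes rose: of 23 chemokines and cytokines 3 rose (13.0%), 2 fell (8.70%) and 18 were not called. Ccl2, a monocyte-attracting chemokine, was at 8.41 and 9.01 in pNSC_L and 7.54 and 7.11 in ESC; Ccl7, its neighbour and relative, rose by 1.40 ± 0.27 (lost without ESC replicate 2). Il6, a cytokine that shares the gp130 receptor with Lif, rose by 0.80 ± 0.13 although it read at most 4.52 on the 4 arrays. Chosen after their values were seen, Lcn2, an iron-binding acute phase protein (1.85 ± 0.23), and Lyz2, the lysozyme of macrophages (1.78 ± 0.22), rose, with ESC levels in the lower quartile.

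The fixed markers of feeder fibroblasts did not all move in 1 direction, while most genes of a longer list had differences above 0. Of 10 fixed for the check, Prrx1 rose by 1.07 ± 0.24, Postn by 0.95 ± 0.20 and Lum by 0.51 ± 0.14, Thy1 fell by 0.76 ± 0.17, and 6 were not called, among them Col1a1 (0.20 ± 0.12), Col1a2 and Col3a1; all 4 calls were lost without ESC replicate 1. Their summed intensity was 2295 and 2281 in pNSC_L and 2306 and 2310 in ESC, and Lum was in the lower quartile on all 4 arrays. The sum weighs bright markers most, and Thy1, which read highest of the 10, fell. The median difference of the 10 was 0.24. In the longer list of 29 feeder fibroblast genes 11 rose and 2 fell (6 and 0 without ESC replicate 1), with Dcn, Mmp3, Bgn, Ccl2 and Tnc (1.27, chosen after its value was seen) kept without each array. In this longer list 37.9% rose and 6.90% fell, beside 6.56% and 6.79% of all genes. Of its 29 differences 23 were above 0, with a median of 0.27. The part of fibroblasts or other cells in the matrix result was not tested.

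Genes of the lysosome rose in 9 of 31 cases and none fell, with a median difference of 0.28; 6 rose without either ESC replicate, and 5 were kept without each of the 4 arrays. Lysosomes break down macromolecules taken up or enclosed by autophagy, and factors of the Mitf and Tfeb family drive many of their genes through CACGTG motifs. Gpnmb, a lysosomal glycoprotein and known Mitf target, was at 8.21 and 8.53 in pNSC_L and 6.97 and 7.02 in ESC. Ctsc, a cathepsin that activates serine proteases, read 10.16 and 10.54 in pNSC_L against 9.35 and 9.28 in ESC. Hexa, which degrades gangliosides, rose by 0.82 ± 0.12, Ctsl, a cathepsin, by 0.74 ± 0.12, and Glb1, the lysosomal beta-galactosidase, by 0.69 (chosen after its value was seen). Mitf itself, chosen after its values were seen, read 10.80 and 10.81 in pNSC_L and 9.34 and 9.40 in ESC (1.44 ± 0.12), with all 6 arrays of the other groups at least 1.01 lower than pNSC_L. Hgsnat, a heparan sulfate-degrading enzyme of lysosomes outside the list and also chosen after its value was seen, rose by 1.00 ± 0.12.

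Promoters from RefSeq (GRCm38.p6, 250 bases before to 50 after each start) are shown for the 2 kept genes, Glb1 and Ctsl, whose windows hold CACGTG, in capitals. That motif reads the same on both strands.
Glb1, chr9:114400828-114401127, plus strand: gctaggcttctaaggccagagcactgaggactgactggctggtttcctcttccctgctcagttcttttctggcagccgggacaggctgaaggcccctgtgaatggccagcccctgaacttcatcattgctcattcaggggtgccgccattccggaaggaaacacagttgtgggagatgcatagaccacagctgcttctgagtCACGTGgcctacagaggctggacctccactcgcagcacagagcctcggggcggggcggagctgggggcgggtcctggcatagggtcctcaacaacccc
Ctsl, chr13:64370471-64370770, minus strand: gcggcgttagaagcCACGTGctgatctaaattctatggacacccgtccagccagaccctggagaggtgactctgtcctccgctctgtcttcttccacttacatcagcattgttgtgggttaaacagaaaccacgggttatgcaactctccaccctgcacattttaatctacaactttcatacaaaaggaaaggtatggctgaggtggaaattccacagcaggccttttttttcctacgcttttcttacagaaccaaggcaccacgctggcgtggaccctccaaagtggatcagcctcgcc
Of the 26 list genes with a window 9 hold CACGTG in at least 1 window, against 8.09% of 27025 genes. Of the 9 genes called, 3 do (Ctsd, Ctsl and Glb1), while Gpnmb, named above as a known Mitf target, does not. The longer GTCACGTG, which contains CACGTG, was found on either strand for 6 of the 26 and for 2.55% of all genes. These matches are letters in a window and no evidence of binding. They are a property of the genes, whatever the arrays read. The 3 of 9 called genes with CACGTG lie near the 9 of 26 (34.6%) of the list. A part of Mitf in the rises was not tested.

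Of 19 fatty acid oxidation genes and PPAR targets 6 rose and 1 fell, with 3 rises and no fall without either ESC replicate. Fabp3, a fatty acid carrier, was at 12.75 and 12.69 in pNSC_L and 11.44 and 11.19 in ESC. Acadm, the medium-chain acyl-CoA dehydrogenase of mitochondria, rose by 0.64 ± 0.10 and Acadvl, its very-long-chain relative, by 0.58 (chosen after its value was seen). Chosen after their values were seen, the carnitine carrier Slc25a20 read 10.38 and 10.24 in pNSC_L against 8.96 and 8.76 in ESC, the mitochondrial enzyme Idh2 12.79 and 12.79 against 11.30 and 11.21, and the peroxisomal oxidase Acox3 rose by 1.60 ± 0.13. In the other direction Pcyt1b, which makes CDP-choline for membranes, was at 8.64 and 8.70 in pNSC_L and 10.43 and 10.32 in ESC, while Chka, the kinase one step earlier, rose by 0.72 ± 0.12.

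Of 21 iron genes 3 fell, 2 rose and 16 were not called, beside 6.79% of all genes that fell. Tfrc, the transferrin receptor, read 10.61 and 10.53 in pNSC_L and 11.77 and 11.83 in ESC, the metalloreductase Steap2 fell by 1.64 ± 0.22 and Steap3 by 0.97 ± 0.12. Hmox1, the haem-degrading oxygenase, was at 9.55 and 9.55 in pNSC_L against 11.02 and 10.82 in ESC. Both rises (Cp and Heph) were lost without either ESC replicate. Glrx, a glutaredoxin, rose by 1.26 ± 0.11.

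Of 26 BMP and Id genes 6 rose and 5 fell. Id1, the inhibitor of differentiation that BMP induces, was at 8.52 and 8.62 in pNSC_L and 10.14 and 10.04 in ESC; Id3 read 6.98 and 6.82 in pNSC_L against 7.97 and 7.81 in ESC (lost without ESC replicate 1), and Id2 fell by 0.87 ± 0.21 (lost without either ESC replicate or pNSC_L replicate 1). Id4, a family member known from neural progenitors, went the other way, at 9.43 and 10.30 in pNSC_L and 7.83 and 7.66 in ESC. Of the receptors, Bmpr2 fell by 0.94 ± 0.16. The secreted BMP antagonist Grem1 rose by 1.16 ± 0.15, and the ligand Bmp2, dim in both groups, by 0.67 ± 0.11. Without ESC replicate 1 the list had 5 rises and 2 falls, and without ESC replicate 2, 3 and 3.

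In the Nodal and Activin pathway 5 of 16 genes rose and 2 fell. Lefty2, a feedback antagonist that Nodal induces, was at 11.36 and 10.88 in pNSC_L and 9.29 and 9.17 in ESC, and its pNSC_L arrays lay above the other 8 by at least 1.09. Pcsk6, a convertase that activates Nodal, read 11.31 and 11.42 in pNSC_L against 10.17 and 10.17 in ESC. Nodal itself rose by 0.48 ± 0.13 (lost without either ESC replicate or pNSC_L replicate 1). Inhbb, the beta subunit of Activin B, fell by 1.51 ± 0.16 and Skil, a Smad corepressor, by 1.48 ± 0.16. Without ESC replicate 1 or ESC replicate 2, 2 rose and 2 fell.

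Among FGF ligands and receptors, Fgf10, a ligand of the FGFR2b receptor, stood at 9.75 and 9.24 in pNSC_L and 7.22 and 7.15 in ESC. Fgf17 and Fgf18, ligands of the midbrain-hindbrain boundary, fell by 1.16 ± 0.12 and 1.10 ± 0.11. Readouts of ERK signalling fell in 3 of 14 cases and none rose (2 without either ESC replicate): Etv4, an ETS factor induced by ERK, read 7.91 and 7.55 in pNSC_L and 9.99 and 9.76 in ESC, Spry4, a feedback inhibitor, fell by 1.22 ± 0.14 and Spred1 by 0.60 ± 0.13 (lost without either ESC replicate or pNSC_L replicate 1). The ERK phosphatase Dusp9, chosen after its value was seen, fell by 1.33 ± 0.10.

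Of 32 Wnt ligands, targets and antagonists 2 rose (6.25%) and 3 fell (9.38%), near the 6.56% and 6.79% of all genes. Sfrp1, a secreted Wnt antagonist, reached 11.98 and 12.46 in pNSC_L, against 10.69 and 10.85 in ESC. The Wnt targets Ccnd1 (cyclin D1) and Lef1 fell by 1.41 ± 0.14 and 0.89 ± 0.11. Porcn, the X-linked acyltransferase that lipidates Wnt ligands, was at 7.76 and 7.54 in pNSC_L and 10.05 and 9.73 in ESC. Of 17 retinoid genes 6 fell and 1 rose, led by the retinoic acid receptor Rarg at 9.10 and 8.84 in pNSC_L against 10.47 and 10.27 in ESC; the other calls were each lost without at least 1 array, and 2 fell without ESC replicate 1 and 3 without ESC replicate 2. Of 20 genes of the Lif and Stat3 pathway 2 rose and 2 fell (10.0% each), near the 10.1% and 10.3% of genes at or above the median level. Tfcp2l1, a naive-state factor downstream of Stat3, rose by 0.72 ± 0.10, while Gbx2, also a Stat3 target in ES cells, fell by 1.17 ± 0.17.

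Fate regulators split. Of 17 primed epiblast genes 7 fell and 1 rose, with 4 falls without ESC replicate 1. The zinc finger factors of the Zic family led: Zic2 was at 8.47 and 8.34 in pNSC_L and 10.72 and 10.76 in ESC, and Zic5 at 8.20 and 8.95 in pNSC_L against 10.96 and 11.08 in ESC. The de novo DNA methyltransferase Dnmt3b fell by 0.94 ± 0.13. Otx2, a homeobox factor of the primed epiblast and forebrain, went against these and read 11.14 and 11.12 in pNSC_L and 9.46 and 9.23 in ESC (1.78 ± 0.48, adjusted p = 0.0364); this call was lost without any 1 of the 4 arrays.

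In the list of 28 genes of neural stem cells and progenitors, 7 rose and 3 fell, with 6 and 2 without ESC replicate 1. Meis2, a homeobox cofactor, stood at 8.93 and 8.80 in pNSC_L and 6.73 and 6.95 in ESC, and its ESC arrays lay at least 1.85 below all 8 others. Hesx1, a forebrain and pituitary homeobox factor, rose by 1.59 ± 0.23, Sox21, a Sox factor of neural progenitors, by 1.06 ± 0.12, and Slc1a3, a glial glutamate transporter, by 0.90 ± 0.10. Pax6, a regulator of cortical progenitors, read 6.94 and 6.80 in pNSC_L against 8.32 and 8.23 in ESC. Sox1 (0.15 ± 0.13) and Nes (-0.38 ± 0.14) were not called.

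Of 32 neuronal genes 6 fell, 2 rose and 24 were not called, with a median of -0.02 and with 5 falls and 1 rise without either ESC replicate. Neurod1, a proneural factor, was at 6.46 and 7.03 in pNSC_L and 8.93 and 9.42 in ESC, and Ina, the neurofilament protein internexin, at 8.40 and 8.42 in pNSC_L against 10.83 and 10.70 in ESC. Nefl fell by 1.40 ± 0.19, Gap43 by 1.10 ± 0.14 and Map2 by 0.96 ± 0.12. Ebf1, a factor of early neurons and B cells, rose and was at 10.16 and 10.11 in pNSC_L and 7.88 and 8.03 in ESC.

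Of other lineages, Eomes, a T-box factor of mesendoderm and trophoblast, was at 9.74 and 9.57 in pNSC_L against 8.15 and 8.19 in ESC, and was the only 1 of 16 mesendoderm genes called. Hoxc12 (9.07 and 9.25 in pNSC_L, 7.48 and 7.39 in ESC) and its neighbour Hoxc13 (8.22 and 8.17 in pNSC_L, 7.35 and 7.28 in ESC) were the only called members of 37 measured Hox genes. Of 27 primitive and visceral endoderm genes 9 rose and 2 fell (5 rises without either ESC replicate), among them Cubn, an endocytic receptor of yolk sac (1.02 ± 0.18). Of 7 endoderm markers fixed for the check, Gata4 rose by 0.84 ± 0.18, Gata6 by 0.57 ± 0.11, Dab2 by 0.88 ± 0.18 and Sox7 by 0.50, all of them lost without ESC replicate 1. Sox17, Foxa2 and Afp were not called. Their summed intensity was 2101 and 1974 in pNSC_L and 1312 and 1446 in ESC, the part of endoderm cells in the matrix and Gata results was not tested, and Srgn, Col4a1 and Col4a2 belong to this list too.

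**Figure D3:**
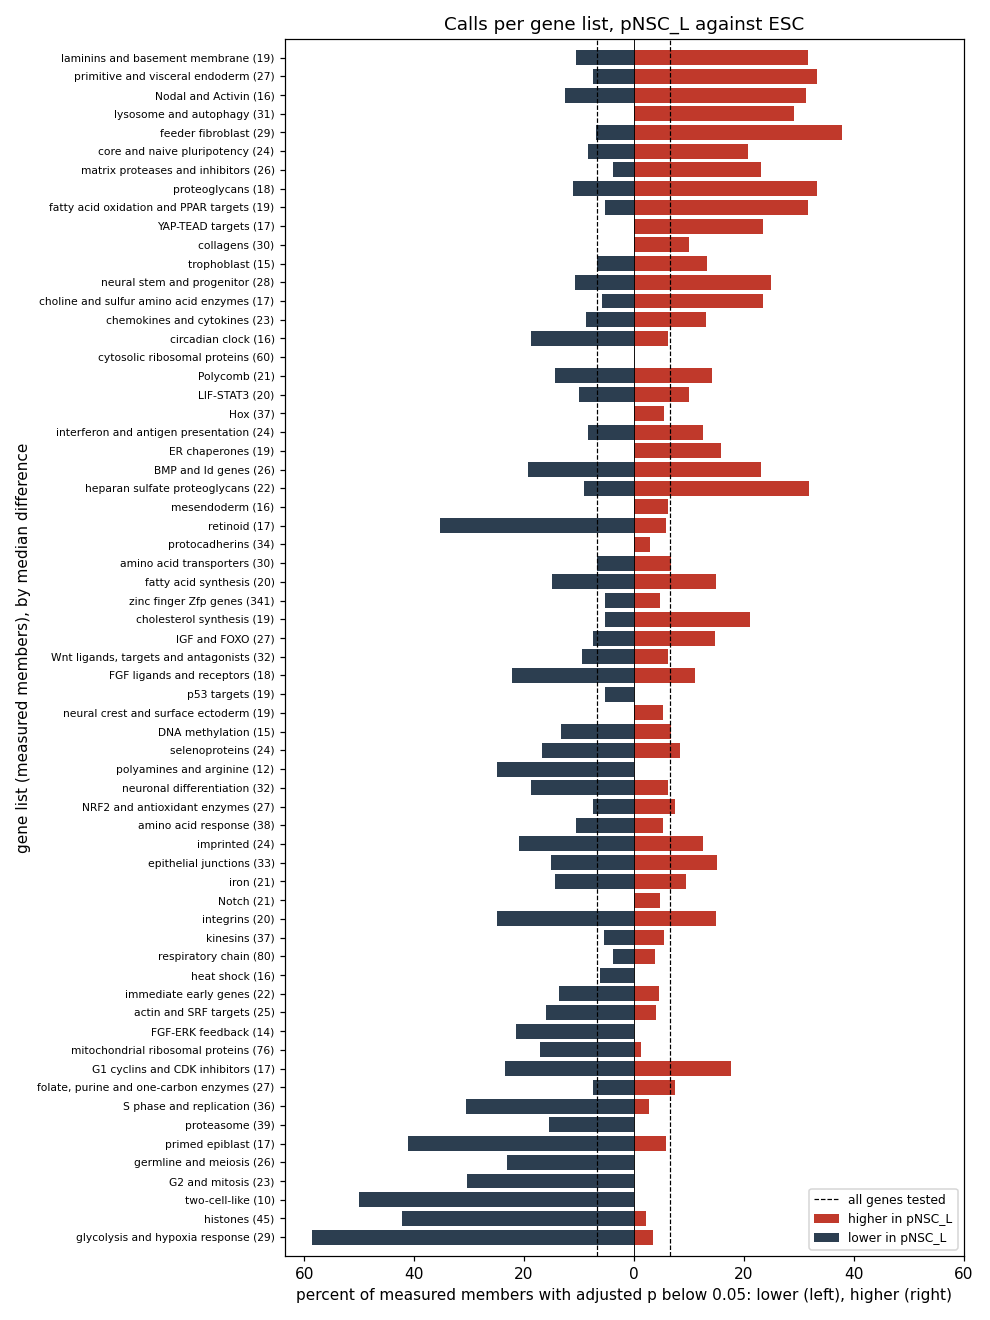
Percent of measured members of each gene list of at least 10 genes that rose (red, right) or fell (dark, left) in pNSC_L against ESC, ordered by median difference, with dashed lines at 6.56% and 6.79% for all genes. Histones and glycolysis lie lowest, and basement membrane and endoderm genes highest.

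Of 45 histone genes 19 fell and 1 rose, with a median of -0.40; 11 fell without either ESC replicate and 10 falls were kept without each array. H2ac1 and H2bc1, a divergently arranged pair of variants known from germ cells and oocytes, led: H2ac1 read 9.58 and 9.46 in pNSC_L and 12.18 and 11.97 in ESC, and H2bc1 8.01 and 8.50 in pNSC_L against 9.90 and 10.15 in ESC. H1f10, a linker histone, fell by 1.58 ± 0.17, and the replication-dependent H2bc4 by 1.40 ± 0.14 and H2bc8 by 1.45 ± 0.18. Slbp, which binds the stem-loop of replication-dependent histone mRNAs, fell by 0.92 ± 0.12. Histone genes are near copies of each other, so a probe set may read several of them.

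Of 36 S phase and replication genes 11 fell and 1 rose (5 falls without either ESC replicate). Ccne2 and Ccne1, the E cyclins that start S phase, fell by 1.32 ± 0.13 and 0.99 ± 0.13, and Rrm2, a ribonucleotide reductase subunit, was at 11.19 and 11.15 in pNSC_L and 11.92 and 11.86 in ESC. Pold1, the catalytic subunit of DNA polymerase delta, rose by 0.80 ± 0.11. Cyclin D2 (Ccnd2) fell by 1.16 ± 0.16 and the kinase Cdk2 rose by 0.62 ± 0.10. Of 23 genes of G2 and mitosis 7 fell and all 23 differences were below 0, with a median of -0.33. None of the 7 was kept without each array: none fell without ESC replicate 1, 2 without ESC replicate 2 and 3 without pNSC_L replicate 1. Pclaf, a PCNA-binding replication factor chosen after its value was seen, fell by 1.82 ± 0.15.

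Proteasome subunits fell in 6 of 39 cases (15.4%), beside 10.3% of genes at or above the median level, and none rose. Their median was -0.27, and 37 of the 39 were below 0. Psma7, a subunit of the core ring, was at 10.52 and 10.56 in pNSC_L and 11.44 and 11.48 in ESC, and Psmd7, of the regulatory lid, fell by 0.74 ± 0.11; 2 fell without ESC replicate 1 and 4 without pNSC_L replicate 1. Mitochondrial ribosomal proteins fell in 13 of 76 cases and 1 rose, with a median of -0.14, led by Mrpl18 (-0.80 ± 0.12) and Mrpl34 (-0.76 ± 0.11); 3 fell without ESC replicate 1, 7 without ESC replicate 2 and 5 without pNSC_L replicate 1. Of 60 cytosolic ribosomal proteins none was called by limma, and their median difference was 0.08. Odc1, the first enzyme of polyamine synthesis, fell by 0.81 ± 0.13.

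Germline and meiosis genes fell in 6 of 26 cases and none rose. Hormad1, a protein of meiotic chromosome axes, was at 8.49 and 9.14 in pNSC_L against 10.48 and 10.38 in ESC, and Tex11, an X-linked meiotic gene, fell by 2.06 ± 0.21 to 5.79 and 6.40, in the lower quartile. Slc25a31, a germ cell ADP/ATP carrier, fell by 1.11 ± 0.14 and the meiotic cohesin Stag3 by 0.92 (chosen after its value was seen). Chosen after their values were seen, Piwil4, a piRNA-binding protein, fell by 1.69 ± 0.12 and Meioc, a meiotic regulator, by 1.59 ± 0.14. The list had 4 falls without either ESC replicate and 13 without pNSC_L replicate 2.

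Adhesion genes moved in both directions. Of 20 integrins 3 rose and 5 fell: Itga6, a laminin receptor chain, was at 11.89 and 11.93 in pNSC_L and 11.11 and 11.23 in ESC, whereas Itga3, another laminin receptor chain, read 8.12 and 7.76 in pNSC_L against 9.25 and 9.21 in ESC, and the shared beta chain Itgb1 fell by 0.69 ± 0.13 (lost without ESC replicate 1). Without ESC replicate 1 the list had 1 rise and 2 falls, and without ESC replicate 2, 2 and 4. Of 33 epithelial junction genes 5 rose and 5 fell. Jup, plakoglobin of desmosomes, rose by 0.86 ± 0.11 and the desmosomal cadherin Dsc2 by 0.77 ± 0.13, while Pkp2, plakophilin, fell by 1.26 ± 0.12, the keratin Krt19 by 1.62 ± 0.13 and occludin (Ocln) by 0.83 ± 0.13. Cdh1, E-cadherin, was at 11.79 and 11.75 in pNSC_L and 11.99 and 12.18 in ESC and was not called. The junction list had 2 rises and 4 falls without ESC replicate 2.

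The other 3 groups place the levels of the called genes. Both ESC arrays lay above all 8 others for 668 of the 2662 called genes and below them for 412, while both pNSC_L arrays lay above the other 8 for 359 and below for 279. The second kind, apart in pNSC_L, included Mmp3, Lefty2, Mitf and Copz2 on the high side and Ddit4, Porcn and Id3 on the low side. Hoxc12 averaged 9.02 in pNSC_LF but 7.05 in dNSC, and Zic2, low in pNSC_L, averaged 8.02 in pNSC_LF and 12.22 in dNSC. Fgf10 averaged 8.34 in pNSC_LF, 8.92 in dNSC and 6.57 in CNS_NSC. These counts compare the same ESC arrays with several groups and give no separate support. They cover called genes only, and the shares over all genes were not computed. All 2662 called genes had pNSC_L and ESC arrays that did not overlap, which also held for 49.3% of all genes.

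**Figure D4:**
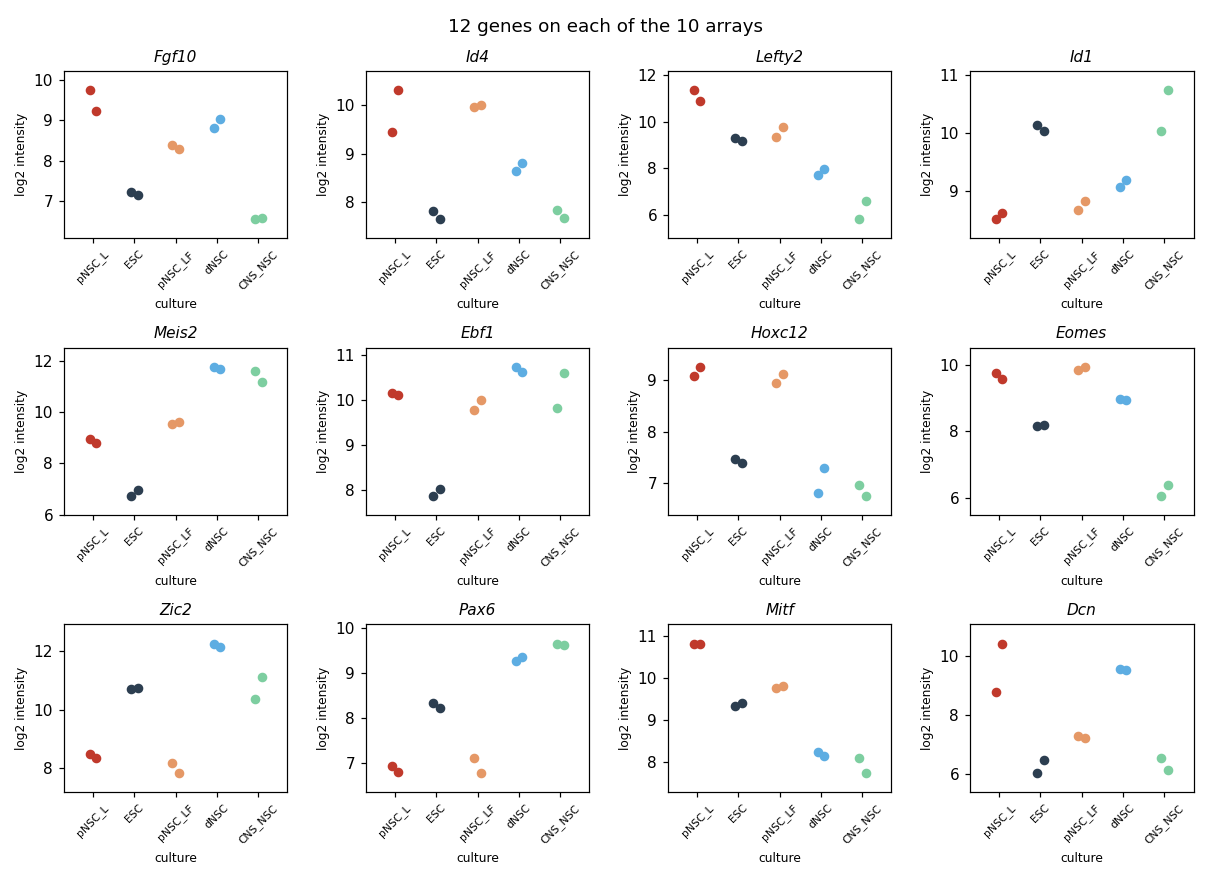
Log2 intensity of 12 genes on all 10 arrays, by culture, with both arrays of a group side by side. Meis2 and Ebf1 are lowest in ESC and high in all other groups, whereas Lefty2 and Mitf peak in pNSC_L.

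Genes on chromosome 8 were lower in pNSC_L than in ESC as a set. RefSeq's gene table (GRCm38.p6) was used for chromosome membership, among genes at or above the median level, where 10.1% rose and 10.3% fell. Of 550 such genes on chromosome 8, 121 (22.0%) fell and 31 (5.64%) rose, and their median difference was -0.17. On the 18 other autosomes the share that fell was 4.84% to 15.1% and the median was -0.09 to 0.05. On the X chromosome 18.7% of 310 genes fell, with a median of -0.06.

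Set against each gene's mean over the 10 arrays, chromosome 8 genes had a median of -0.07 and -0.02 on the pNSC_L arrays and 0.14 and 0.11 on the ESC arrays. The 6 other arrays lay between -0.05 and -0.01, so the ESC arrays stood above all 8. On the X chromosome the medians were -0.17 and -0.01 on the pNSC_L arrays and 0.00 and -0.04 on the ESC arrays. The lowest of these was that of pNSC_L replicate 1. A median does not show single genes: the X-linked Mid1 and Porcn were lower on both pNSC_L arrays, and Hprt and Bgn higher. With each pNSC_L and ESC array left out in turn, the median difference of chromosome 8 stayed at -0.13 or below. For X it moved to -0.15 when pNSC_L replicate 2 was dropped, but to -0.004 when pNSC_L replicate 1 was. Dropping ESC replicate 1 gave -0.06 for X, and dropping ESC replicate 2 gave -0.07. Chromosome 8 was not the lowest in every fit: with pNSC_L replicate 2 dropped, chromosome 13 had -0.185 and chromosome 8 had -0.177.

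Named genes on chromosome 8 went both ways. Egln1, an oxygen-sensing prolyl hydroxylase, was at 7.96 and 8.12 in pNSC_L and 9.64 and 9.85 in ESC. The falls of Hmox1, given above, and of Arl2bp, a ciliary GTPase partner chosen after its values were seen, at 9.57 and 9.71 in pNSC_L and 10.89 and 10.66 in ESC, are also on chromosome 8, and so are the rises of Col4a1, Sfrp1 and Hgsnat. A gain of chromosome 8 is a common karyotype change of cultured mouse ES cells; copy number was not measured, and its part in these differences was not tested.

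**Figure D5:**
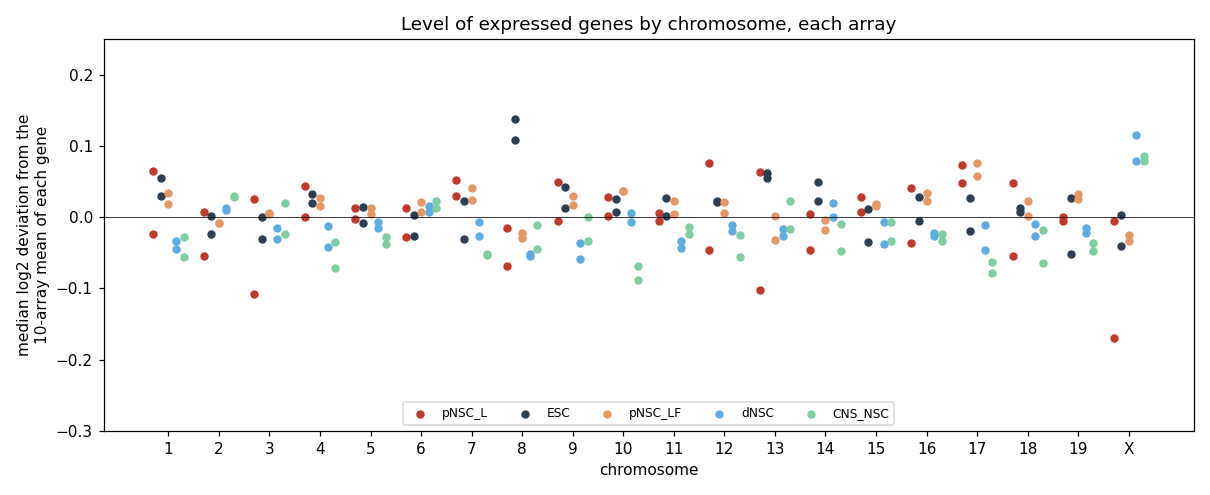
Median log2 deviation of expressed genes from their own 10-array mean, by chromosome, 1 point per array and 1 colour per culture. The 2 ESC points on chromosome 8 (0.14 and 0.11) are the highest of that chromosome, and the low point on X (-0.17) is pNSC_L replicate 1.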

How the data were processed

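Per the labels' protocols, Trizol RNA of 10 cultures was labelled with the Ambion WT Expression kit for Affymetrix arrays. The deposited table holds 1 log2 value per probe set and array; RMA and Partek are named in the submitters' processing notes. RMA compresses differences of dim probe sets. The genome build of the submitters' probe set annotation is not stated, and positions given above are from RefSeq (GRCm38.p6).

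Of 35556 probe sets, 21789 carried exactly 1 symbol; each of the 19938 genes was represented by its brightest probe set. limma 3.58.1 (R 4.3.3) estimated 1 mean per group from the 10 arrays. Degrees of freedom were 5 residual and 4.9 prior, the median SE was 0.13, and Benjamini-Hochberg adjustment covered all genes. The series' text calls the samples biological replicates. No scan date was analysed here.

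The naming rule took the 20 largest rises and 20 largest falls that passed the test, did not overlap, had known names and reached 8.10 (the median gene) in the higher group. It added up to 5 rises and 5 falls per list, or otherwise the 2 largest differences, and landmark genes, 344 in all, of which a part is described. Genes and lists were chosen with earlier results of these data known. The 65 lists held 2080 entries, of which 1988 were measured. Alternatives covered normalization, filters, priors, array weights and left-out arrays. The fit was tested on simulated data.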

Additional observations from a re-analysis of the deposited data

Results flagged for a closer look

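Outside the genes described, 13767 probe sets had no single gene symbol in the platform's table or several. In a limma fit of the same design, with p-values adjusted over these probe sets alone, 73 of them (0.53%) were higher in pNSC_L than in ESC and 102 (0.741%) lower, smaller shares than the 6.56% and 6.79% of named genes. They were set aside because they name no single gene, and are given as signal in data that the comparisons do not use. Groups of 2 arrays are too small for a check on single outlying samples.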

How the results depend on the processing

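Fitting only the 4 arrays gave 1480 calls (719 higher, 761 lower), and limma without moderation 1587 (807 and 780); array weights gave 865 higher. Leaving out 1 array at a time gave 1102 to 3290 calls, 545 to 1615 higher and 535 to 1811 lower. Of the 344 genes named by rule 325 were called, 200 without moderation and 179 to 327 with 1 array left out; 149 of the 325 were called under all 21 alternatives, and none of the 325 changed direction. List entries called numbered 391, with 245 without moderation and 189 to 477 with 1 array left out. Dio3, not called, ranged from -0.028 to 0.22 with 1 array left out, and was below 0 without ESC replicate 2 (-0.028) and pNSC_L replicate 2 (-0.013). The cause was not tested, beyond fewer arrays in the fits that leave arrays out. With replicate number as a block 2958 genes were called (1448 higher, 1510 lower), and 320 of the genes named by rule; deviations of replicate 1 correlated at 0.18 between pNSC_L and ESC, and 2 numbers cannot establish a pairing, although small RNA genes read higher in replicate 1 of 4 of the 5 groups. Groups of 2 arrays and dim probe sets limit precision.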
